A study of Mus musculus with 4 samples.

Results

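The genes described here are Klrk1, Klrc1, Klrc2, Klrd1 and Klrg1, which encode the receptors of the NKG2 family and KLRG1, followed through circulating T cells of tumor-bearing mice. They were taken by symbol, 5 of the 27998 genes listed, and all 5 had UMIs in CD8, CD4 and NK cells. Single-cell RNA sequencing was done on blood T cells of female C57BL/6 mice that were 6 to 8 weeks old at the start and carried a subcutaneous MC-38 tumor, a colon carcinoma line. Mice were untreated or received anti-PD-L1 on days 10, 13 and 17, anti-OX40 with the TLR9 ligand CpG on day 7 (anti-OX40/CpG), or both regimens (PDOX), and blood was taken on day 18. The sample labelled OX40 was taken as anti-OX40/CpG. Each group was 1 library and the record speaks of 4 mice, so that mouse, library and treatment cannot be told apart. Differences between treatments are therefore given as values with intervals for counting error only, without a test.

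The NKG2 receptors are C-type lectin-like proteins first studied on NK cells and also carried by activated CD8+ T cells. NKG2D, from Klrk1, is an activating receptor that recognizes stress-induced MHC class I-like ligands and signals through the adaptor DAP10, encoded by Hcst. NKG2A, from Klrc1, is inhibitory and NKG2C, from Klrc2, is activating. Both reach the cell surface paired with CD94, from Klrd1, and recognize Qa-1, encoded by H2-T23. KLRG1 is an inhibitory receptor for cadherins that marks terminally differentiated effector T cells.

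Of 5434 deposited barcodes, 5299 with at least 200 genes were kept, 784 of them untreated, 1446 from the anti-PD-L1 library, 1559 after anti-OX40/CpG, and 1510 from PDOX. Cells with UMIs of Cd8a or Cd8b1 and none of Cd4 were taken as CD8 cells (2172), those with Cd4 and neither CD8 gene as CD4 cells (890), and those with at least 2 of Ncr1, Klrb1c and Klra8 as NK cells (67). CD8 cells numbered 338, 676, 685 and 473 in the same order of libraries. The T cell labels held: Cd3d was found in 89.1% to 92.8% of CD8 cells and in 80.9% to 91.9% of CD4 cells of a library, but in 6.67% to 28.6% of NK cells. Libraries held 2392650 to 4969885 UMIs, with a median of 1454 to 1647 per kept cell without mitochondrial, ribosomal and hemoglobin genes, and shared 14 barcodes. Lyz2, a myeloid gene, was found in 34.9% of untreated and 25.9% of anti-PD-L1 CD8 cells, but in 3.36% and 11.8% of those from the anti-OX40/CpG and PDOX libraries. Its part in the results below was not tested. Levels and tests were repeated with stricter T cell gates (2060 CD8 and 852 CD4 cells). These asked for a Cd3 UMI and left out NK cells and cells with more than 1 monocyte gene. A cell with Lyz2 as its only monocyte gene still passed. With these gates Lyz2 was found in 14.5% of CD8 and 12.2% of CD4 cells, against 17.1% and 13.9% without them.

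In the GRCm38.p6 RefSeq annotation, all 5 genes lie on mouse chromosome 6. Klrd1 (chr6:129588092-129598775), Klrk1 (chr6:129610323-129623903), Klrc2 (chr6:129649602-129660737) and Klrc1 (chr6:129666015-129682852) lie side by side in the NK gene complex, with Klrc3 between Klrk1 and Klrc2. Klrg1 (chr6:122270596-122282833) lies apart. Klrc1 and Klrc2 are near-copies: among stretches of 50 bases in the last 500 bases of their GENCODE M39 transcripts, 39.6% of those of Klrc1 also occur in Klrc2, and 11.7% of those of Klrc2 in Klrc1. No such stretch was shared between Klrk1, Klrd1 or Klrg1 and another of the 5 genes. How the counting treated reads that fit both is not given in the sources used here, so the split between Klrc1 and Klrc2 is less certain than their joint presence.

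RefSeq windows from 250 bases before to 50 after an annotated start (GRCm38.p6, minus strand, printed 5′ to 3′ along the gene) are shown for the 3 of these genes that had one, because their transcripts were found in the same cells, as described below. Capitals mark matches on either strand to the RUNX core TGTGGT, the E-box CAGNTG and the TCF/LEF core CTTTGA, which do not overlap each other here. For Klrc2, 1 of 2 overlapping windows is printed.
Klrk1, chr6:129623815-129624114: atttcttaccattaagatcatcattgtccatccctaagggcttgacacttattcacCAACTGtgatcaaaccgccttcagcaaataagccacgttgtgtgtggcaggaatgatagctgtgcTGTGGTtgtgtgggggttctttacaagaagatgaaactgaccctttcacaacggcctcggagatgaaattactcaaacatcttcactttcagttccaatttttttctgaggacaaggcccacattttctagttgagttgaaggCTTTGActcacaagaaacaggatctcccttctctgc
Klrc1, chr6:129678924-129679223: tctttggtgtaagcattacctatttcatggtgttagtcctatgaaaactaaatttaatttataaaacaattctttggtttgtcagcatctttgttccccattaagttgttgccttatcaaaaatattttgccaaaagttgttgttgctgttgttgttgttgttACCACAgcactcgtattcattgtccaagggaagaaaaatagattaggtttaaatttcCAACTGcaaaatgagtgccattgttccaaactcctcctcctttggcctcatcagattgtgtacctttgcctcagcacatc
Klrc2, chr6:129660507-129660806: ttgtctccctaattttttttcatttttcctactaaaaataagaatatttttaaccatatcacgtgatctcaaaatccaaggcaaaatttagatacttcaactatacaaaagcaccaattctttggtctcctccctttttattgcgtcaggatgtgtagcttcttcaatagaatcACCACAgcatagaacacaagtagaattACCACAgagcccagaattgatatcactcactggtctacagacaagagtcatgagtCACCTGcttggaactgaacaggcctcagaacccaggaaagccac
The RUNX core occurred once in the Klrk1 and Klrc1 windows and at 2 places in that of Klrc2, and in 16.8% of all 32851 RefSeq windows. The E-box was found in all 3 printed windows, but not in the other Klrc2 window, and in 51.4% of all windows. The TCF/LEF core was found in the Klrk1 window alone of the 3, and in 16.0% of all windows. The T-box core TCACAC, present in 14.5% of all windows, had no match in these 3.

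The 5 genes had clearly different levels in CD8 cells, and each was lowest in the untreated and highest in the PDOX library. The activating receptor gene Klrk1 was at 0.461, 1.42, 2.21 and 3.26 UMIs per 10000 CD8 UMIs, given here and below in the order untreated, anti-PD-L1, then anti-OX40/CpG and last PDOX (25, 198, 269 and 283 UMIs). The PDOX level was 7.08 times the untreated level (95% interval of counting 4.70 to 11.1) and 1.48 times that after anti-OX40/CpG (1.24 to 1.75). All 6 intervals between pairs of libraries lay off 1, so that the order held beyond counting error of UMIs. These intervals take each UMI as a separate draw, whereas the UMIs lay in 11, 63, 78 and 107 cells, so they may be too narrow. With the stricter T cell gates, 14 UMIs were left in the untreated library and the ratio of PDOX to untreated was 11.7 (6.85 to 21.7), since 10 of the 25 untreated UMIs came from 2 cells that also passed the NK gate.

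The inhibitory receptor gene Klrc1 was at 0.184, 1.06, 1.26 and 1.88 UMIs per 10000 in CD8 cells of the same 4 libraries. PDOX was 10.2 times untreated (5.40 to 21.7), whereas anti-OX40/CpG and anti-PD-L1 could not be separated (ratio 1.19, 0.940 to 1.5). Its activating counterpart Klrc2 was lower than Klrc1 in the 3 treated libraries, though not in the untreated one, at 0.221, 0.322, 0.583 and 0.806 UMIs per 10000. For Klrc2, PDOX was 3.65 times untreated (1.96 to 7.40), while anti-PD-L1 against untreated (1.46, 0.758 to 3.03) and PDOX against anti-OX40/CpG (1.38, 0.980 to 1.95) were within counting error.

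Klrd1, the shared partner chain, behaved differently. It was the most abundant of the 5 in CD8 cells of every library, at 4.18, 5.47, 5.77 and 6.70 UMIs per 10000, and PDOX was 1.60 times untreated (1.37 to 1.88). The anti-OX40/CpG and anti-PD-L1 levels were within counting error of each other (ratio 1.06, 0.951 to 1.17). The intervals of these ratios of PDOX to untreated do not overlap between Klrd1 and Klrk1, Klrc1, Klrc2 or Klrg1. Since 3′ counts are not divided by gene length and a gene's capture is its own, the levels of different genes are compared here only as UMIs found.

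Klrg1, the marker of terminal effector cells, was the scarcest in every library but PDOX, where it passed Klrc2, at 0.0737, 0.229, 0.427 and 1.04 UMIs per 10000 (4, 32, 52 and 90 UMIs). PDOX was 14.1 times untreated (5.31 to 52.8) and 2.43 times anti-OX40/CpG (1.71 to 3.48). The 4 untreated UMIs came from 2 cells, both of which also passed the NK gate. With the stricter gates the untreated library had no Klrg1 UMI in 306 CD8 cells, and the PDOX level was at least 17.2-fold higher than a floor of 3 UMIs in that library.

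**Figure D1:**
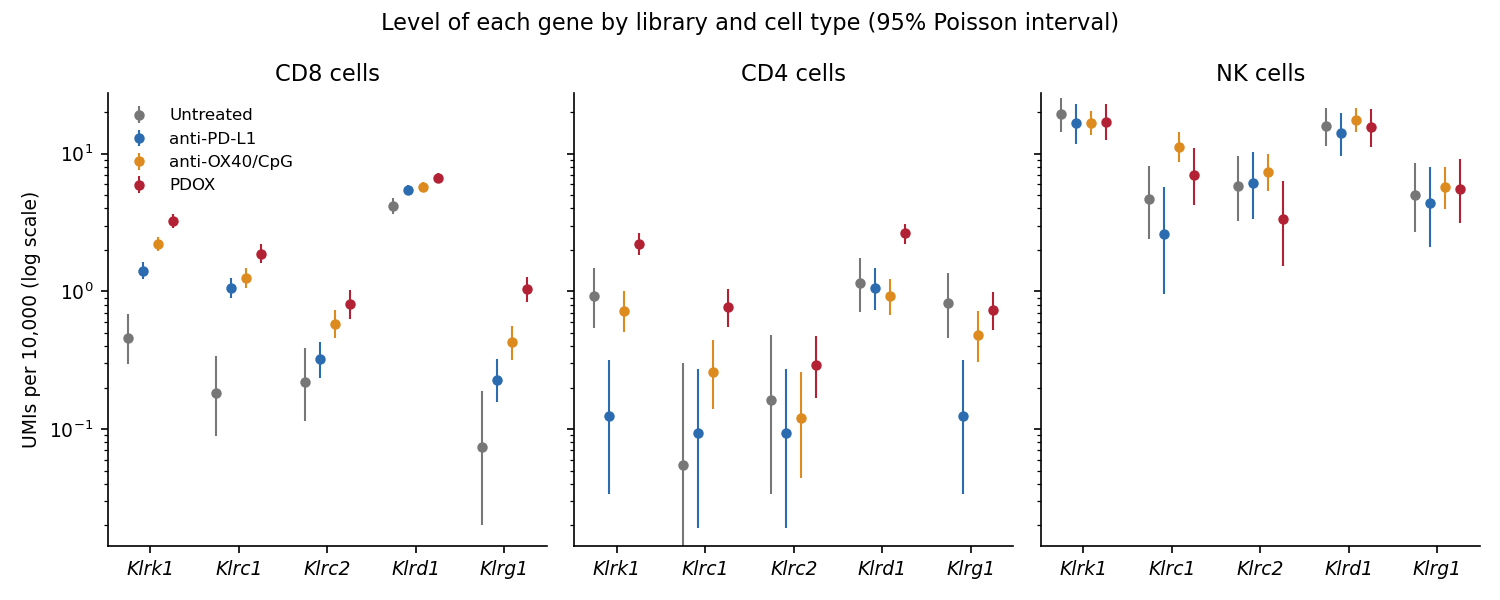
UMIs per 10000 (log scale) of each gene in CD8, CD4 and NK cells, 1 point per library with its 95% exact Poisson interval for counting error. In CD8 cells the untreated point is lowest and the PDOX point highest for each of the 5 genes, while the NK intervals of Klrk1, Klrd1 and Klrg1 overlap between libraries; the lower bar of Klrc1 in untreated CD4 cells, from 1 UMI, runs off the axis.

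The share of CD8 cells in which a gene was found followed the levels for 4 of the genes. Klrk1 was found in 3.25%, 9.32%, 11.4% and 22.6% of CD8 cells in the 4 libraries, in the same order. For Klrc1 these shares were 2.07%, 6.80%, 9.78% and 16.3%, for Klrc2 2.07%, 4.44%, 6.28% and 10.8%, and for Klrg1 0.592%, 2.37%, 4.09% and 12.1%. Klrd1 was found in 44.7%, 51.2%, 51.4% and 50.5%, so that about equal shares of CD8 cells carried it in the 3 treated libraries. When every cell was thinned to 750 UMIs, which left out 175 of the CD8 cells, the untreated and PDOX shares were 2.29% and 15.7% for Klrk1, 1.31% and 9.39% for Klrc1, 1.31% and 6.10% for Klrc2, 25.8% and 32.9% for Klrd1, and 0 and 6.34% for Klrg1. B cells, which should lack these receptors, gave the background: of 127 B cells, with a median of 1138 to 1301 UMIs by library against 1545 to 1762 in CD8 cells, 2 had Klrd1, 1 had Klrc1 and none had Klrk1, Klrc2 or Klrg1, which allows up to 2.36%. The untreated CD8 shares of Klrc1, Klrc2 and Klrg1 were within that limit. Of 89 monocytes, 7.87% had Klrk1 and 4.49% had Klrd1.

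Across cell types the order was NK over CD8 over CD4 for 4 of the genes. Over the 4 libraries, which differ in treatment, Klrk1 averaged 17.5 ± 1.29 UMIs per 10000 in NK cells, 1.84 ± 1.19 in CD8 and 0.996 ± 0.879 in CD4 cells (SD, n = 4 libraries). Klrd1 averaged 15.8 ± 1.48, 5.53 ± 1.04 and 1.44 ± 0.801. The CD8 and CD4 ranges overlapped for Klrk1 but not for Klrd1.

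In the test over libraries, Klrd1 was higher in CD8 than in CD4 cells by 2.07 ± 0.18 on the log2 scale (SE, adjusted p = 5.95e-05), Klrc1 by 2.0 ± 0.26 (adjusted p = 0.00125) and Klrc2 by 1.71 ± 0.28 (adjusted p = 0.00556), each in all 4 libraries. Klrk1 differed by 1.12 ± 0.36, higher in 3 of 4 libraries, with an adjusted p of 0.15, and Klrg1 by -0.05 ± 0.41 (adjusted p = 0.989), higher in 2 of 4. In untreated CD4 cells, 7 of 17 Klrk1 UMIs lay in 1 cell of the NK gate. With the stricter gates Klrk1 was at 1.35 ± 0.28 and was called (adjusted p = 0.0135), as it was under some other settings given in the closing section. Without the anti-OX40/CpG library, Klrc2 was at 1.44 and was not called. So 3 of the 5 genes were called higher, against 2.14% of 6301 genes tested (3.6% called in either direction). Of the granule and homing genes, 4 of 15 tested were called higher (Gzmm, Ccl5, Nkg7 and Gzmk) and 1 lower (Itgb1, lower in 3 of 4 libraries). The transcription factor gene Runx3, a regulator of the CD8 lineage, was higher by 1.08 ± 0.20 (adjusted p = 0.0093). The median of the granule and homing list was 0.63, and that of all genes tested was -0.00.

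In CD4 cells the NKG2 genes were rarer. Klrk1 was found in 5 of 110, 2 of 201, 21 of 271 and 46 of 308 CD4 cells of the 4 libraries in order (4.55%, 0.995%, 7.75% and 14.9%). Its level was 0.928, 0.124, 0.721 and 2.21 UMIs per 10000. PDOX was 2.38 times untreated (1.43 to 4.23), and 5.16 times with the stricter gates. Klrc1 had 1, 3, 13 and 42 UMIs in these CD4 libraries and Klrc2 had 3, 3, 6 and 16. The ratio of PDOX to untreated was 14.1 for Klrc1, with an interval from 2.39 to 569 that reflects the single untreated UMI, in a cell of the NK gate, and 1.79 for Klrc2 (0.511 to 9.57). Klrd1 in CD4 cells was at 1.15, 1.05, 0.921 and 2.63 UMIs per 10000, with PDOX 2.30 times untreated (1.45 to 3.82). Here the 3 other libraries overlapped and PDOX alone lay above them. Klrg1 in CD4 cells did not follow the CD8 order, at 0.819, 0.124, 0.481 and 0.731 UMIs per 10000, and PDOX was 0.893 times untreated (0.483 to 1.74). The 15 untreated UMIs of Klrg1 lay in 2 CD4 cells, whereas the 40 of PDOX lay in 22, so the shares were 1.82% and 7.14%.

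NK cells held all 5 genes at high levels in every library, although with 15, 7, 30 and 15 cells. Klrk1 was found in 94.0% of all 67 NK cells, Klrd1 in 91.0%, Klrg1 in 62.7%, Klrc2 in 56.7% and Klrc1 in 50.8%. Klrk1 was at 19.4, 16.6, 16.8 and 17.1 UMIs per 10000 in NK cells of the 4 libraries in order, and every interval of its ratios between libraries included 1. The same was true of Klrd1 and Klrg1. Klrc1 was at 4.65, 2.62, 11.2 and 7.04 UMIs per 10000, and the anti-OX40/CpG level was 2.42 times untreated (1.30 to 4.91). Klrc2 in PDOX NK cells was 0.452 times that after anti-OX40/CpG (0.194 to 0.939). Thus the ratios of PDOX to untreated seen in CD8 cells for Klrk1 (7.08) and Klrg1 (14.1) had counterparts of 0.880 (0.577 to 1.34) and 1.10 (0.490 to 2.52) in NK cells of the same libraries. In the 3 libraries with at least 10 cells in both groups, all 5 genes were called higher in NK than in CD8 cells, where 3.84% of 4581 genes were (9.58% in either direction). The log2 fold change was 3.51 ± 0.33 for Klrc2, 3.48 ± 0.38 for Klrg1, 3.26 ± 0.27 for Klrk1, 2.91 ± 0.30 for Klrc1 and 1.56 ± 0.23 for Klrd1 (adjusted p = 1.85e-08 for Klrd1, the largest of the 5). Of the signalling partners, Tyrobp, the DAP12 adaptor, was higher by 5.08 ± 0.28 and Syk by 3.17 ± 0.63. Hcst, the DAP10 adaptor, was at -0.33 ± 0.25 (adjusted p = 0.54) and was found at 7.15 to 13.2 UMIs per 10000 in CD8 cells and 4.81 to 13.6 in NK cells.

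T cells were then divided by state without use of the 5 genes. Cells with both S100a4 and S100a6 and neither Ccr7 nor Lef1 were called effector-type. Cells with Ccr7 or Lef1 and no S100a4 were called naive-type, and the others intermediate. Effector-type cells were 2.37%, 4.44%, 11.8% and 16.7% of CD8 cells from the untreated to the PDOX library, intermediate cells 20.4%, 20.0%, 23.9% and 42.9%, and naive-type cells 77.2%, 75.6%, 64.2% and 40.4%. Of effector-type CD8 cells, 12.1% had Tyrobp and 16.2% had Lyz2, against 4.44% and 8.33% with the stricter gates. The libraries stood apart in this: in the order used above, 62.5%, 56.7%, 3.70% and 8.86% of effector-type cells had Lyz2, 37.5%, 36.7%, 8.64% and 3.8% had Tyrobp, and 62.5%, 70.0%, 91.4% and 94.9% had Cd3d. The stricter gates left 4, 20, 79 and 77 effector-type cells.

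Klrk1, Klrc1, Klrc2 and Klrg1 rose steeply from naive-type to effector-type CD8 cells, whereas Klrd1 was found in many cells of all 3 states. Over all libraries, Klrk1 was found in 2.92% of naive-type, 23.6% of intermediate and 41.9% of effector-type CD8 cells. The same shares were 2.49%, 16.99% and 32.8% for Klrc1, 1.35%, 12.3% and 21.2% for Klrc2, and 0.713%, 9.63% and 19.2% for Klrg1. Klrd1 was found in 50.2%, 48.7% and 53.0%, but its libraries did not move alike: from naive-type to effector-type cells the share went from 46.7% to 25% (2 of 8 cells) in untreated, from 50.3% to 46.7% in anti-PD-L1, from 55.0% to 45.7% in anti-OX40/CpG and from 44.0% to 65.8% in PDOX cells. In the 3 libraries with at least 10 effector-type cells, the log2 fold change of effector-type over naive-type cells was 4.00 ± 0.38 for Klrg1 (adjusted p = 1.14e-05), 3.86 ± 0.26 for Klrc1 (5.33e-07), 3.51 ± 0.25 for Klrk1 (8.11e-07) and 3.23 ± 0.41 for Klrc2 (0.000116). These 4 calls held in every alternative in which the gene passed the filter on low counts. Klrg1 and Klrc2 did not pass it after thinning, nor did Klrg1 when the untreated library, with 8 effector-type cells, was added. In naive-type cells of the 3 treated libraries in order, Klrg1 had 5, 6 and 3 UMIs and Klrc2 had 5, 20 and 1. Genes this scarce can pass the filter through their effector-type counts alone. For Klrg1 and Klrc2, being tested is then not independent of being higher, so calls that held where tested add little. Klrd1 was at 0.56 ± 0.18 (adjusted p = 0.0449), a call that was lost when any 1 of the 3 libraries was left out (0.36 to 0.75) and when the untreated library was added (0.40 ± 0.22, adjusted p = 0.241), and that was 0.82 ± 0.18 with the stricter gates (adjusted p = 0.00329). Of 3909 genes tested, 18.6% were called and 9.93% were higher in effector-type cells, so many genes differed between these states. In the same comparison 14 of 15 granule and homing genes were called higher (median 3.81, all genes -0.01), 4 of 9 transcription factors higher and 3 lower, 2 of 17 signalling partners higher and 1 lower, and 2 of 3 other lectin genes lower. The state was defined by S100a4, S100a6, Ccr7 and Lef1, of which Lef1 alone is in these lists and was left out.

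**Figure D2:**
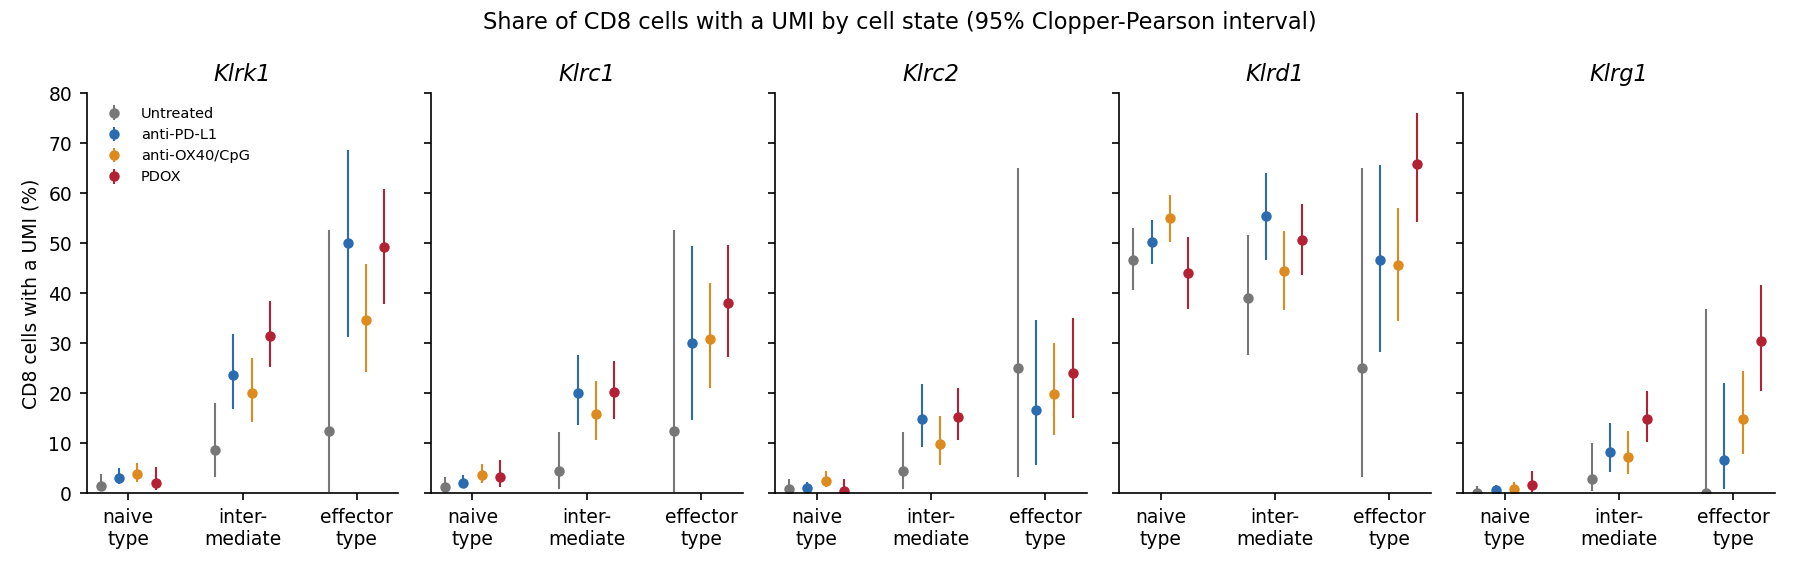
Share of CD8 cells with a UMI of each gene (%) in naive-type, intermediate and effector-type cells, 1 point per library with its 95% exact Clopper-Pearson interval. In naive-type cells Klrd1 lies between 44.0% and 55.0% and no point of the other 4 genes passes 3.86%, while in effector-type cells the points of Klrk1 lie between 12.5% and 50.0%.

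Within states, the order of the libraries was not the same for each gene. In naive-type CD8 cells Klrk1 was found in 1.53%, 3.13%, 3.86% and 2.09% of cells in the order of libraries above, and its PDOX level was 2.52 times untreated with an interval that included 1 (0.786 to 9.41). In intermediate cells the Klrk1 shares were 8.70%, 23.7%, 20.1% and 31.5%, and PDOX was 2.95 times untreated (1.79 to 5.18) but 1.14 times anti-OX40/CpG (0.889 to 1.45). In effector-type cells they were 12.5%, 50.0%, 34.6% and 49.4%, where the untreated value is 1 of 8 cells, and with the stricter gates 65.0%, 35.4% and 49.4% in the 3 treated libraries. In level, PDOX effector-type cells were at 0.990 times anti-OX40/CpG (0.751 to 1.30), against 1.48 over all CD8 cells. They were at 2.41 times anti-PD-L1 (1.6 to 3.74), although the anti-PD-L1 share was not lower. Effector-type cells had a median of 3678 UMIs after anti-PD-L1 and 2137 in PDOX, so these 2 shares were read at unlike depths. For Klrc1 in intermediate cells, anti-PD-L1 had the highest level, 3.10 UMIs per 10000 against 2.55 in PDOX and 2.01 after anti-OX40/CpG, and the ratio of PDOX to anti-PD-L1 was 0.821 (0.615 to 1.09), against 1.77 in all CD8 cells. Against the untreated level, from 3 UMIs, Klrc1 in intermediate cells was 11.3 times after anti-PD-L1 (3.76 to 55.6) and 9.26 times in PDOX (3.07 to 45.7). Klrd1 in PDOX was 0.966 times untreated in naive-type (0.769 to 1.21), 2.28 times in intermediate (1.64 to 3.26) and 4.19 times in effector-type cells (1.60 to 15.6, from 4 untreated UMIs), against 1.60 in all CD8 cells. Klrg1 kept a PDOX excess in intermediate cells, at 1.52 UMIs per 10000 against 0.669 after anti-OX40/CpG (ratio 2.28, 1.33 to 4.06). In effector-type cells, 30.4% of PDOX, 14.8% of anti-OX40/CpG and 6.67% of anti-PD-L1 cells had Klrg1, and none of the 8 untreated cells. Their PDOX level was 1.21 times that after anti-OX40/CpG, with an interval that included 1 (0.700 to 2.09).

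In CD4 cells, effector-type cells were 6.36%, 3.98%, 14.8% and 30.2% of the 4 libraries in order. With libraries of at least 5 effector-type cells, 2 of the 5 genes passed the filter on low counts. Both were called higher than in naive-type CD4 cells: Klrk1 by 4.37 ± 0.42 (adjusted p = 8.34e-06) and Klrd1 by 1.82 ± 0.32 (adjusted p = 0.00181). Of 2556 genes tested, 4.66% were called higher (10.5% in either direction). On the scale of the levels above, Klrk1 averaged 0.117 in naive-type and 2.95 in effector-type CD4 cells, and Klrd1 0.81 and 2.29. A gene as scarce in naive-type cells as Klrk1 can pass the filter through its effector-type counts alone. For such a gene, being tested is not independent of being higher, so 2 of 2 cannot be weighed against 4.66%. The Klrd1 call in CD4 cells was lost without the anti-OX40/CpG library (1.66) or without PDOX (1.51). Klrc1, Klrc2 and Klrg1 had 30, 14 and 32 UMIs in these cells and were not tested. Effector-type cells of the 2 lineages were also compared directly, and there the log2 fold change of CD8 over CD4 was 2.11 ± 0.33 for Klrc1 and 1.52 ± 0.24 for Klrd1, both called (adjusted p = 5.92e-05 each). Klrk1 (0.86 ± 0.26, adjusted p = 0.0821), Klrc2 (1.67 ± 0.50, adjusted p = 0.0837) and Klrg1 (0.69 ± 0.45, adjusted p = 0.745) were not. Of 1974 genes tested, 1.82% were called and 1.47% were higher in CD8 cells, the leading ones beside the CD8 genes being the granzyme genes Gzmb (3.50 ± 0.30) and Gzma (2.95 ± 0.35).

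Because NKG2A and NKG2C need CD94, the cells with Klrd1 were examined for their partner. In CD8 cells of the 4 libraries in order, 3.97%, 13.6%, 16.8% and 29.3% of Klrd1-positive cells also had Klrc1 or Klrc2. Conversely, of CD8 cells with Klrc1 or Klrc2, Klrd1 was found in 50% (6 of 12 cells), 85.45%, 72.8% and 72.9% in the same order. Of those without, it was found in 44.5%, 48.15%, 48.5% and 44.8%. The untreated share had a 95% Clopper-Pearson interval of 21.1% to 78.9%, which includes the share without. Over all libraries the 2 shares were 74.6% and 47.0%. Of Klrd1-positive naive-type CD8 cells, 93.0% had none of the other 4 genes, and of effector-type cells 23.8%. None of the 61 Klrd1-positive NK cells had Klrd1 alone, which allows a share of up to 4.92%. A cell without a UMI is not shown to lack the transcript at this depth.

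Several of the 5 genes were often found in the same CD8 cell. At least 2 of them were found in 9, 67, 92 and 127 CD8 cells of the 4 libraries in order, and all 5 in 1, 3, 4 and 7. Klrk1 and Klrc1 were both found in 130 cells, where the product of their shares within each library gives 29.6, a ratio of 4.40. The ratio was 5.72 for Klrc1 with Klrc2, a pair that shares sequence, 4.73 for Klrk1 with Klrc2, 3.96 for Klrc1 with Klrg1 and 3.52 for Klrk1 with Klrg1. Pairs with Klrd1 had ratios from 1.38 to 1.5. The ratio for Klrk1 with Klrc1 was 7.93 after anti-PD-L1, 5.51 after anti-OX40/CpG and 3.04 after PDOX. Within effector-type CD8 cells the 10 ratios were between 1.13 and 2.16, and in NK cells between 1.01 and 1.09. Cells with more of the genes also had more UMIs, a median of 1486 in CD8 cells with none and 2448 in those with 4. After thinning to 750 UMIs the ratio of Klrk1 with Klrc1 was 3.76 and that of Klrc1 with Klrg1 was 1.85, from 6 cells. These ratios describe the cells and carry no test.

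**Figure D3:**
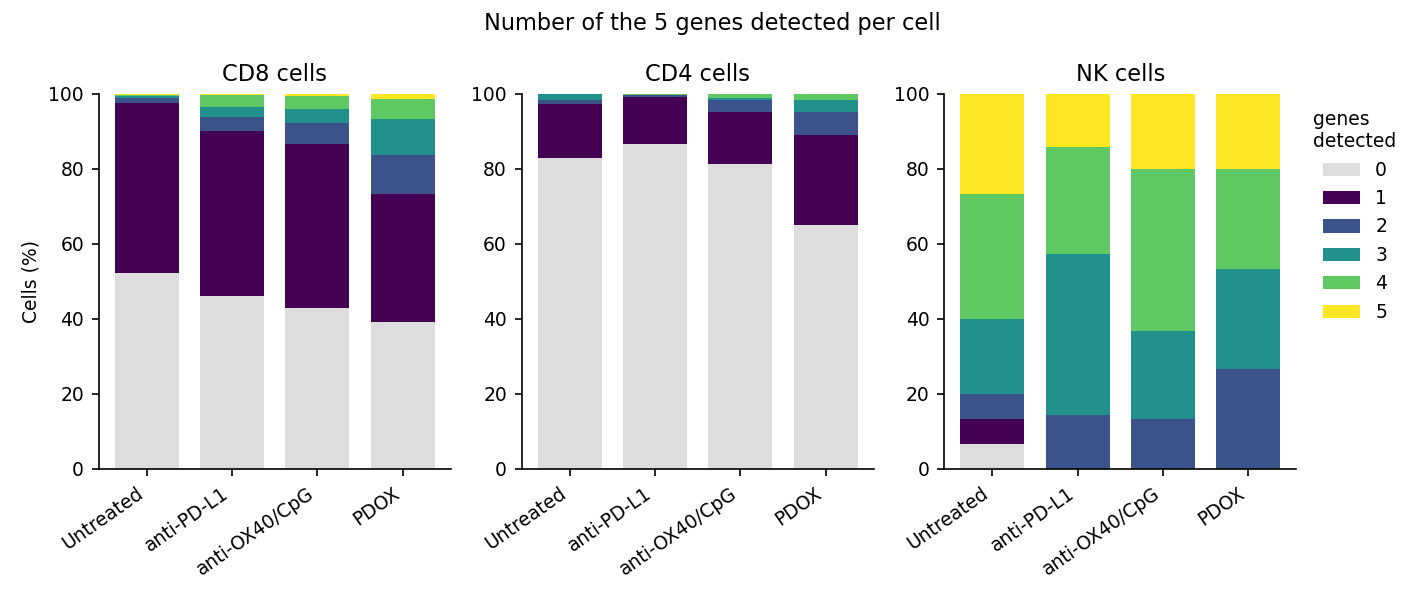
Percentage of CD8, CD4 and NK cells in which 0 to 5 of the genes were found, 1 stacked bar per library. CD8 cells with at least 2 of the genes grow from the untreated to the PDOX library, while in NK cells most had 3 or more in every library.

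CD8 cells were also split by 1 gene and the others tested over libraries. This reads the co-occurrence counted above again, in the same cells, and is no separate support for it. In Klrk1-positive against Klrk1-negative CD8 cells, Klrc1 was higher by 4.29 ± 0.24, Klrc2 by 3.73 ± 0.23, Klrg1 by 3.21 ± 0.37 and Klrd1 by 1.11 ± 0.15 (adjusted p of 2.78e-05 or less). In Klrc1-positive cells Klrc2 was higher by 3.56 ± 0.32, Klrk1 by 3.34 ± 0.26, Klrg1 by 2.87 ± 0.35 and Klrd1 by 1.18 ± 0.13. In Klrc2-positive cells Klrc1 was higher by 3.51 ± 0.24, Klrk1 by 2.79 ± 0.23, Klrg1 by 2.61 ± 0.37 and Klrd1 by 1.14 ± 0.13. The increases were smaller in Klrd1-positive cells, from 2.14 ± 0.23 for Klrc1 to 1.16 ± 0.27 for Klrg1, the latter not called with the stricter gates (0.91, adjusted p = 0.105) or without the anti-PD-L1 library (0.87). In Klrg1-positive cells Klrc2 was higher by 2.34 ± 0.34, Klrc1 by 2.04 ± 0.20, Klrk1 by 1.65 ± 0.19 and Klrd1 by 0.66 ± 0.14. All 20 of these differences, in which each pair of genes was read in both directions, were called. In the Klrd1 split, Klrc1 and Klrc2 were higher in 3 of 4 libraries, and with DESeq2 Klrk1 alone of the 4 genes was called. Klrg1 in the Klrc2 split was not called without the anti-OX40/CpG library (2.16). The share of all tested genes called higher was 5.2% in the Klrk1, 3.74% in the Klrc1, 2.79% in the Klrc2, 0.517% in the Klrd1 and 5.06% in the Klrg1 split (9.42%, 6.9%, 5.16%, 1.88% and 10.1% in either direction). In CD4 cells only the Klrd1 split had at least 10 positive cells in 3 libraries. There Klrk1, the 1 of the 5 genes that could be tested, was higher by 2.03 ± 0.28 (adjusted p = 3.1e-05), where 0.275% of 2547 genes were called higher and 0.55% in either direction.

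**Figure D4:**
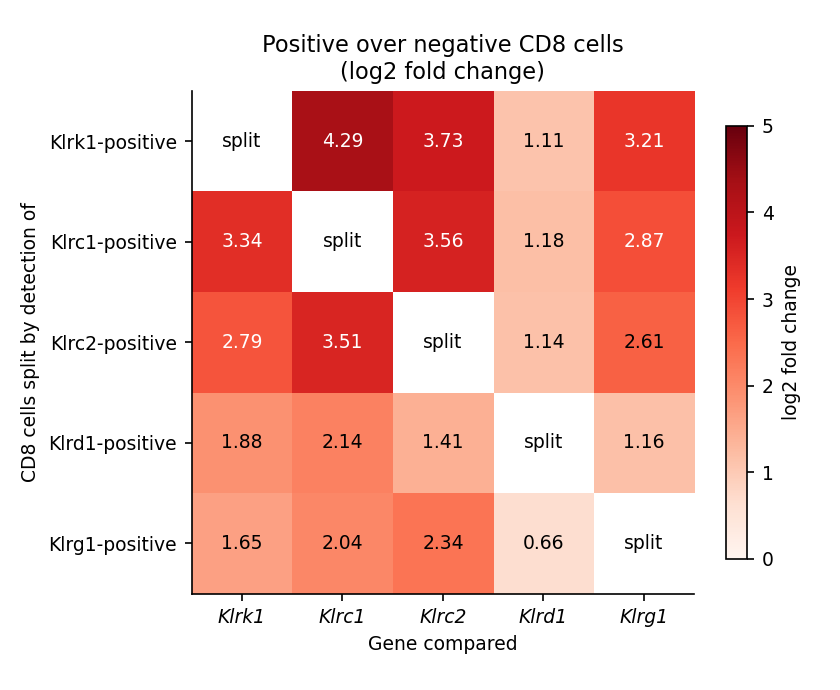
Log2 fold change of each gene (columns) in CD8 cells positive over cells negative for another (rows), from the edgeR fit over 3 or 4 libraries. Values range from 0.66 for Klrd1 in Klrg1-positive cells to 4.29 for Klrc1 in Klrk1-positive cells, and no value in the Klrd1 column is above 1.18.

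Within effector-type CD8 cells, few genes were called in the same splits. In Klrk1-positive effector-type cells, Klrc1 was higher by 3.31 ± 0.36 (adjusted p = 0.00355) and Klrd1 by 2.10 ± 0.37 (adjusted p = 0.0306), among 0.811% of 1356 genes called and 0.295% called higher. In Klrc1-positive effector-type cells, Klrk1 was higher by 2.08 ± 0.32 (adjusted p = 0.0239), among 0.339% of 1476 genes called and 0.0678% called higher. With the stricter gates Klrd1 in the Klrk1 split was 1.79 ± 0.31 (adjusted p = 0.0587). Klrg1 was at 1.62 ± 0.51 and 1.31 ± 0.53 in these splits and was not called. No gene of the granule and homing list was called in either of them, of 13 and 14 tested. With the stricter gates the Klrc1 split had 23 genes called instead of 5, among them Klrk1 (1.95 ± 0.27), Klrd1 (1.18 ± 0.24) and Klrc2 (2.62 ± 0.52), and Gzma (1.73 ± 0.21) and Ccr2 (1.83 ± 0.32) were called higher and Ccl5 (-0.50 ± 0.14) lower. The Klrk1 split had 1 gene called with those gates.

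The cells with these receptors carried the genes of cytotoxic and tissue-homing T cells. Of the granule and homing genes, 16 of 17 tested were called higher in Klrk1-positive CD8 cells (median 2.12, all genes -0.02), 14 of 18 in Klrc1-positive (median 1.65), 13 of 18 in Klrc2-positive (median 1.63) and 13 of 17 in Klrg1-positive cells (median 1.92), with none called lower. In Klrd1-positive cells it was 6 of 16 (median 0.51). Gzma, which encodes granzyme A, was higher by 4.54 ± 0.41 in Klrk1-positive, 3.20 ± 0.32 in Klrc1-positive, 2.44 ± 0.29 in Klrc2-positive, 2.34 ± 0.10 in Klrd1-positive and 4.05 ± 0.17 in Klrg1-positive cells. Ccr2, a chemokine receptor gene, was higher by 2.79 ± 0.17 in Klrk1-positive and 2.48 ± 0.22 in Klrc1-positive cells. Among transcription factors, Id2 and Zeb2, both linked to effector differentiation, were higher in Klrk1-positive cells by 1.79 ± 0.14 and 2.39 ± 0.25, and Tcf7 and Lef1, linked to naive and memory cells, fell by 1.11 and 1.76. Of 11 transcription factors tested, 4 were called higher and 3 lower in Klrk1-positive, 3 and 3 in Klrc1-positive, 4 and 2 in Klrc2-positive and 4 and 4 in Klrg1-positive cells. In Klrd1-positive cells Id2 was higher by 0.59 ± 0.10, whereas Tcf7 (-0.12 ± 0.10) and Lef1 (-0.13 ± 0.10) were not called. Klre1, a neighbor in the NK gene complex, was called higher in all 5 splits, by 3.84 ± 0.36 in Klrk1-positive and 2.66 ± 0.32 in Klrd1-positive cells, although in the Klrd1 split it fell below the filter on low counts with the stricter gates.

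The receptors' adaptors and other signalling partners were read in the same splits. Of 17 signalling partners tested, 2 were called in Klrk1-positive cells, Hcst (0.40 ± 0.12, adjusted p = 0.034) and Tyrobp (0.78 ± 0.24, adjusted p = 0.045). Of all genes in that split, 5.2% were called higher and 9.42% in either direction, so this count is not read as a result about the partners. With the stricter gates Hcst was called and Tyrobp fell below the filter. In Klrc1-positive cells Hcst (0.40 ± 0.10) and in Klrg1-positive cells Sh2d1a, which encodes the adaptor SAP (0.83 ± 0.18), was the 1 partner called higher. Of all genes in these 2 splits, 3.74% and 5.06% were called higher. Tyrobp was lower in Klrd1-positive cells (-2.42 ± 0.23), and it too fell below the filter with the stricter gates. The myeloid gene Lyz2 was also lower in that split (-4.24 ± 0.15), and was not called with the stricter gates (-0.19, adjusted p = 0.87). The part of myeloid transcripts in the Tyrobp decrease was not tested. Of 13 ligand genes, H2-T23 alone could be tested and was not called in the 5 splits of all CD8 cells (-0.12 to 0.18). Several large decreases rested on few cells: 88.4% of the 7509 Gsto1 UMIs in CD8 cells, 94.5% of 595 Psca and 84.4% of 649 Asprv1 UMIs lay in 4 cells each, none of which had Klrd1. Gsto1 was lower by 4.86 ± 0.45 in Klrd1-positive and by 5.06 ± 0.30 on the log2 scale in Klrg1-positive cells.

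Klrg1-positive cells differed from other receptor-positive cells. The largest increases in Klrg1-positive over Klrg1-negative CD8 cells were in genes of mitosis, Cenpf (4.97 ± 0.56), Ccna2 (4.92 ± 0.53), Ccnb1 (4.78 ± 0.57), Hmmr (4.76 ± 0.68) and Ube2c (4.61 ± 0.31). They rested on 43, 43, 36, 23 and 178 UMIs in the cells compared, and Hmmr fell below the filter on low counts with the stricter gates. Klrc2-positive cells also had higher Ccnb1 (3.62 ± 0.77), Cenpf (3.38 ± 0.76), Cdk1 (3.26 ± 0.54) and Ccna2 (3.25 ± 0.69), the last of which was not called with the stricter gates (2.92, adjusted p = 0.053). Set against Klrg1-negative CD8 cells with any NKG2 gene, Klrd1 included, 10.4% of 4430 genes were called. Of all CD8 cells, 832 had Klrd1 alone, 656 of them naive-type, so the comparison was repeated with cells that had Klrk1, Klrc1 or Klrc2, and there 3.54% of 2626 genes were called. Ube2c (3.30 ± 0.33), Top2a (3.0 ± 0.39), Cdc20 (2.62 ± 0.59), Birc5 (2.46 ± 0.27) and 2810417H13Rik (2.19 ± 0.31) had the largest increases in Klrg1-positive cells. Ifitm2 fell by 4.67, Ifitm1 by 3.45, Il7r, the interleukin 7 receptor gene, by 1.89 and Ctss by 1.69 on the log2 scale.

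The granule and homing genes divided in this comparison. Of 15 tested, 7 were higher in Klrg1-positive cells: Gzma (1.91 ± 0.17), Gzmb (1.71 ± 0.19), Gzmk (1.69 ± 0.22), Cx3cr1 (1.57 ± 0.28), S1pr5 (1.43 ± 0.36), Ccl5 (0.72 ± 0.17) and Nkg7 (0.61 ± 0.14). In turn Gzmm (-1.14 ± 0.31, adjusted p = 0.034) and Cxcr6 (-0.88 ± 0.23, adjusted p = 0.031), a chemokine receptor gene, were lower. The list's median was 0.61 and that of all genes -0.01. Of 7 transcription factors tested, Tcf7 was lower (-1.18 ± 0.28, adjusted p = 0.015), while Zeb2 (0.83 ± 0.24, adjusted p = 0.052) and Lef1 (-0.98 ± 0.29, adjusted p = 0.066) were not called. The same counts, 7 higher and 2 lower granule and homing genes and 1 lower transcription factor, were obtained with the stricter gates. Klrg1-positive cells had a median of 2106, 2348 and 2144 UMIs in the 3 treated libraries in order, and the cells they were set against 2706, 1765 and 1843. In all, 93 genes were called, against 39 without the anti-OX40/CpG library and 36 without PDOX. Without the 5% of cells with the most UMIs the count was 15, in which Gzma (2.19 ± 0.22, adjusted p = 0.000348) and Gzmb (2.0 ± 0.19, adjusted p = 0.000253) stayed called, whereas Gzmm (-1.99, adjusted p = 0.11), Cxcr6 (-0.26, adjusted p = 0.777) and Tcf7 (-1.40, adjusted p = 0.091) did not.

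**Figure D5:**
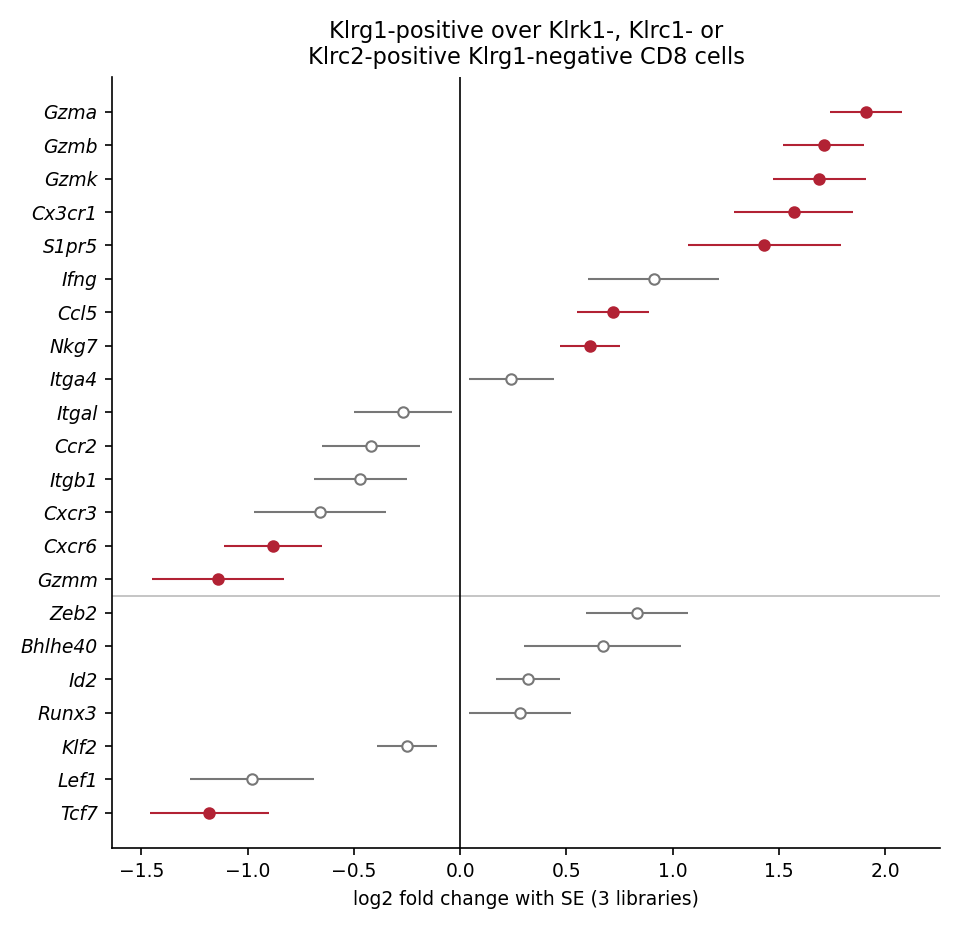
Log2 fold change with its SE of the transcription factor genes (below the gray line) and the granule and homing genes (above it) in Klrg1-positive CD8 cells over Klrg1-negative cells with Klrk1, Klrc1 or Klrc2, in 3 libraries. Filled points were called at an adjusted p under 0.05; Gzma (1.91) lies highest and Tcf7 (-1.18) lowest.

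The genes whose levels ran most like each of the 5 were read from 12 sums, 4 libraries by CD8, CD4 and NK cells, among 8126 genes. The sums share libraries and are dominated by the distance of NK from T cells, so the coefficients are a description. Chsy1 (r = 0.981), Gzma (0.980) and Ctsd (0.969) were most like Klrk1. Ifitm10 (0.954), Ccl5 (0.954) and Chsy1 (0.951) were most like Klrc1. Klre1 (0.982), Gzma (0.977) and Klra3 (0.976) were most like Klrc2, Ctsw (0.971), Plek (0.944) and Baiap3 (0.942) most like Klrd1, and Sdf2l1 (0.965), Mmgt2 (0.952) and Efhd2 (0.951) most like Klrg1. Among the 5 genes themselves r lay between 0.732, for Klrd1 with Klrg1, and 0.956, for Klrk1 with Klrc2.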

How the data were processed

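Droplet 3′ single-cell libraries were made with the 10x Genomics kit from blood T cells, 1 library per group. The authors aligned reads and counted molecules with Cell Ranger and deposited a matrix of raw counts (UMIs per gene and barcode). The submitters' processing notes name mm10 and Seurat 2. Counting of reads shared by near-identical genes and doublet removal are not given in the sources used here, and no doublet caller was run.

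From the deposited counts, barcodes with fewer than 200 genes were removed, as were the 13 mitochondrial, 86 ribosomal and 10 hemoglobin genes. Libraries held 2392650 to 4969885 UMIs. Levels are UMIs per 10000 with exact Poisson intervals, ratios have exact conditional binomial intervals and shares exact Clopper-Pearson intervals, at 95%. They cover counting error only. The limit that a count of 0 allows is 3 UMIs or cells.

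For tests, UMIs were summed per library and cell group (at least 10 cells in 3 or more libraries, or 5 where stated) and compared with the quasi-likelihood test of edgeR 4.0.16 (R 4.3.3), with TMM scaling, filterByExpr and the library as a block, since each library holds both groups. P values were two-sided and adjusted by Benjamini-Hochberg over all genes tested, and called means an adjusted p under 0.05. The spread is that between 4 libraries that differ in treatment. The splitting gene itself, and the genes of a gate, were not read as results. The script was tested on simulated data. No test was run between treatments, with 1 library each.

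Named genes were the 5 with the largest change in each direction among those called and changed the same way in every library, the 3 most correlated with each gene (Pearson, log2 of UMIs per 10000 plus 0.1, at least 50 UMIs), and members of the gene lists. The 5 genes, gates and lists were chosen with earlier results of these data known. A gene that this rule would name is not reported here. Psca was named after its values were seen, for how few cells held its UMIs. Alternatives were DESeq2 1.42.0, its size factors, no filter on low counts, all genes kept, no block, each library left out, a Cd3 UMI required, an upper limit of 2900 genes, cells thinned to 750 UMIs and leaving out the 5% of cells with the most UMIs. Splits within effector-type cells, groups of at least 5 cells and the stricter T cell gates were added after seeing the data. Python 3.11.15 with numpy 2.4.6, scipy 1.17.1, pandas 2.3.3 and matplotlib 3.10.9 was used for all else.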

Additional observations from a re-analysis of the deposited data

Results flagged for a closer look

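Cells that the CD8 and CD4 gates left out also carried these genes. In 6 cases with at least 1 untreated UMI, the interval of PDOX over untreated lay above 1. No Cd3 UMI was asked of the cells with both Cd4 and a CD8 gene. Cells with both Cd4 and a CD8 gene (26, 69, 65 and 78 cells from the untreated, anti-PD-L1, the anti-OX40/CpG and the PDOX library) had Klrk1 at a PDOX level 13 times the untreated level (2.24 to 525), from 51 against 1 UMIs, and Klrd1 at 1.72 times (1.03 to 3.05). In cells with a Cd3 UMI and none of Cd4, Cd8a or Cd8b1 (246, 402, 481 and 509 cells), the PDOX level was 1.72 times untreated for Klrk1 (1.13 to 2.68), 26.3 times for Klrc1 (4.5 to 1059, from 49 against 1 UMIs), 2.48 times for Klrd1 (1.74 to 3.60) and 5.23 times for Klrg1 (1.89 to 20.2). The intervals cover counting error between single libraries, and which cells these are was not tested. The order of libraries was not that of CD8 cells: for Klrk1, PDOX was 0.632 times anti-OX40/CpG (0.430 to 0.923) in the cells with both coreceptors and 0.721 times (0.547 to 0.947) in those with neither. Cells of the NK gate were not left out of these groups. In the 4 libraries in order, 2, 2, 10 and 3 cells of the NK gate had a Cd3 UMI, and their part in these levels was not tested. Klrc2 in the cells with neither coreceptor was 1.19 times untreated in PDOX (0.519 to 2.97). In cells with both coreceptors, Klrg1 had 0, 2, 17 and 60 UMIs and Klrc1 had 0, 15, 38 and 32. Without an untreated UMI these 2 genes were not among the 6 cases. Their intervals of PDOX over untreated also lay above 1, from 4.03 for Klrg1 and from 2.09 for Klrc1.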

How the results depend on the processing

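Of the log2 fold changes of the 5 genes under all alternatives, 519 kept their direction and their side of the threshold, 28 lost the call, 7 gained it and 1 reversed: Klrg1 in CD8 against CD4 cells was at 0.39 without the untreated library, from -0.05 (-0.56 to 0.39 over the libraries left out). The other ranges over libraries left out were 0.79 to 1.47 for Klrk1 and 1.44 to 1.84 for Klrc2 in that comparison. Klrk1 there was called with a Cd3 UMI required (1.33), with no filter on low counts (1.15), with stricter gates (1.35), after thinning (1.25) and without the cells of most UMIs (0.93). Its ratio of PDOX to untreated was 11.7 with stricter gates and 13.2 without the cells of most UMIs in CD8 cells, and 5.16 with stricter gates in CD4 cells.

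Numbers of genes called moved more. Below, the order is CD8 against CD4 (227 genes), NK against CD8 (439), effector-type against naive-type CD8 (729) and CD4 (268), effector-type CD8 against CD4 (36), the Klrk1, Klrc1, Klrc2, Klrd1 and Klrg1 splits of CD8 cells (482, 382, 283, 113 and 561), the Klrd1 split of CD4 cells (14), and Klrg1-positive against NKG2-positive (461) and against Klrk1- or Klrc-positive cells (93). Leaving out 1 library at a time gave 92 to 216, 213 to 315, 329 to 768, 98 to 331, 11 to 25, 240 to 570, 160 to 365, 126 to 240, 49 to 162, 358 to 468, 7 to 24, 162 to 357 and 36 to 82. The lowest counts came without the anti-OX40/CpG library in the first 5 comparisons and the Klrc1 and Klrc2 splits, without anti-PD-L1 in the Klrk1 and Klrd1 splits and against NKG2-positive cells, and without PDOX in the Klrg1 split, the CD4 split and against Klrk1- or Klrc-positive cells. DESeq2 called 196 genes in NK cells, 264 and 166 by state, 11 between lineages, 280, 140, 125, 35 and 209 in the CD8 splits, 4 in the CD4 split, and 147 and 22 for Klrg1. Thinning, which leaves fewer genes to test, gave 226, 306 (state, CD8), 18 (lineage), 202, 175, 113, 30 and 171 (CD8 splits), and 137 and 25 (Klrg1). Cell types, states and the positive and negative groups of the splits were still set from the counts before thinning, so depth was not made equal in choosing the groups. Without the cells of most UMIs, 504 genes were called between CD8 and CD4 cells, 147, 40 and 213 in the Klrc2, Klrd1 and Klrg1 splits, 23 in the CD4 split, and 143 and 15 for Klrg1. With no filter on low counts there were 472 (CD8 against CD4), 1151 (state, CD8), 58 (lineage), 413 and 43 (Klrd1 splits of CD8 and CD4 cells) and 144 (Klrg1 against Klrk1 or Klrc). Keeping all genes gave 348 (CD8 against CD4) and 203 (Klrg1 against Klrk1 or Klrc). A Cd3 UMI gave 69 and stricter gates 62 in the Klrd1 split, the upper gene limit 33 for Klrg1 against Klrk1 or Klrc, and splitting within effector-type cells 11 (Klrk1) and 5 (Klrc1).

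Without the library as the replicate block, effector-type against naive-type cells gave 661 (CD8) and 343 (CD4, more than with it), and fewer genes were called in the other comparisons: 82 (CD8 against CD4, where Klrc1 at 1.73 and Klrc2 at 1.52 were no longer called), 275 (NK), 4 (lineage), 255, 70, 93, 12 and 285 (CD8 splits), 213 and 8 (Klrg1). In the Klrd1 split of CD4 cells 0 were called by edgeR without the block (112 at an unadjusted p under 0.05), against 4 by DESeq2 with it. Libraries pair the groups because each holds both. The causes of these moves were not tested. Splits of CD4 cells by Klrk1, Klrc1, Klrc2 and Klrg1 had too few cells in too few libraries and were not run. Untreated effector-type cells (8) and NK cells (67 in all) limit what could be detected.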

Other observations

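Klrc3 lies between Klrk1 and Klrc2. Of its stretches of 50 bases, read as above, 18% also occur in Klrc2 and 8.51% in Klrc1. It had 2 UMIs in all CD8 cells and 0 in CD4 and NK cells. Hcst, whose product DAP10 carries the signal of NKG2D, was at 7.15, 8.19, 13.2 and 10.4 UMIs per 10000 in CD8 cells of the untreated, anti-PD-L1, the anti-OX40/CpG and the PDOX library, and at 5.73, 8.05, 10.8 and 11.6 in CD4 cells. The ranges of the 2 lineages overlapped. In turn, Klrk1 averaged 1.84 and 0.996 in CD8 and CD4 cells. Tyrobp, whose product DAP12 can carry the signal of NKG2C, was at 43.0 to 59.3 UMIs per 10000 in NK cells and at 1.11 to 4.04 in CD8 cells, and at 62.3 to 70.5 in monocytes.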
